A study of Mus musculus with 8 samples.

Results

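Transcripts of the pyruvate dehydrogenase complex and of the enzymes that switch it off and on were measured in mouse tendon stem cells (TSCs). The set held 10 genes of the 19301 in the deposited table, found by their symbols: the kinases Pdk1, Pdk2, Pdk3 and Pdk4, the phosphatase subunits Pdp1 and Pdp2, and the complex subunits Pdha1, Pdhb, Dlat and Pdhx. The set was chosen by the difference between the cultures in these same libraries, with the high Pdk4 level under HFHG already known, so the values of its members are given as a description and without a test. The cells were primary TSCs isolated from mouse patellar tendon, and mRNA was sequenced after 4 days in 1 of 2 media. HFHG (high fat, high glucose) medium combined raised glucose with the saturated fatty acid palmitic acid at 300 µM. Low glucose (LG) medium contained 5.5 mM glucose and DMSO instead of the fatty acid. Glucose and palmitic acid changed together, so their effects cannot be told apart. Each group had 4 biological replicates. The sources used here do not say whether the replicates came from separate animals, so the p-values below measure only the spread between these libraries, which may be technical.

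The complex sits in the mitochondrial matrix and turns pyruvate, the end product of glycolysis, into acetyl-CoA for the citric acid cycle. Pyruvate dehydrogenase kinases phosphorylate its alpha subunit and switch it off, and pyruvate dehydrogenase phosphatases remove the phosphate and switch it on again. In muscle, heart and liver, Pdk4 is known to be induced during fasting and by fatty acids, whereas Pdk1 is a known target of the hypoxia response.

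The 250 bases before the RefSeq start of each kinase gene (GRCm38.p6) are shown because the 4 kinases share 1 substrate and yet did not change alike between the 2 media. They are written in the direction of transcription, and capitals mark every match, on either strand, to the CCAAT box (CCAAT), the GC box (GGGCGG), the E-box (CACGTG) or the hypoxia response core (ACGTG, which lies inside the E-box). Pdk4 lies on the minus strand (window chr6:5496279-5496528), Pdk2 on the minus strand (chr11:95041372-95041621), Pdk1 on the plus strand (chr2:71872974-71873223) and Pdk3 on the minus strand (chrX:93832151-93832400).
Pdk4: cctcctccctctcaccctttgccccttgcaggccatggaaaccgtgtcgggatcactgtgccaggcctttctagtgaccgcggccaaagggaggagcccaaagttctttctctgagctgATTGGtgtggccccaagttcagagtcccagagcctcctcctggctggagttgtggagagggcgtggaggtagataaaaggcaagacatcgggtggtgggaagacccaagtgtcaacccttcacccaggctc
Pdk2: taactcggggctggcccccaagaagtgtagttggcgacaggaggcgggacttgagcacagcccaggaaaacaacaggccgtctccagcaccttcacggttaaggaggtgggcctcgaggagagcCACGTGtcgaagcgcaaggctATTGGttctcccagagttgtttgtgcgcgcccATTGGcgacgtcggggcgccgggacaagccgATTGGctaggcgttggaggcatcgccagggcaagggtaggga
Pdk1: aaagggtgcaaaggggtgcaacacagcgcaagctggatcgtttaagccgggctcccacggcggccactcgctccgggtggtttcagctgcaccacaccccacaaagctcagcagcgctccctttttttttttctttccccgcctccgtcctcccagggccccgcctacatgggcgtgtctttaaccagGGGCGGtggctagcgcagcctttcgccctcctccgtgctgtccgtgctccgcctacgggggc
Pdk3: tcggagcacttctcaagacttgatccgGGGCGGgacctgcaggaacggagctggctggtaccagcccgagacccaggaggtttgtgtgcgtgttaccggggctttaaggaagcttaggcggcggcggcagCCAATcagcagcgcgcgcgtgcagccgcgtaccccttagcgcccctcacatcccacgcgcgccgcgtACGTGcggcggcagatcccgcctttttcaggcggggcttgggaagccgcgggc

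The Pdk4 window held 1 CCAAT box, on the minus strand at position -131 from the start. The Pdk2 window held 3, at -105, -73 and -42, and an E-box at -126. Inside that E-box lay the hypoxia response core, at -126 on the minus strand and at -125 on the plus strand. A GC box was the only match of the Pdk1 window, at -62, and the Pdk3 window held a CCAAT box at -120, a GC box at -223 and a hypoxia response core at -53. These letters are common: of 32851 such windows in the RefSeq table, 33.8% held a CCAAT box, 32.7% a GC box, 16.6% a hypoxia response core and 6.02% an E-box. Windows were found for 9 of the 10 members, 11 windows in all since Pdk1 and Pdk2 have a second start, and the windows of those second starts held none of the motifs searched. No member window held a FoxO site (GTAAACA, in 3.17% of all windows), a nuclear receptor site (AGGTCA, 14.0%), a pair of such sites spaced by 1 base (0.0335%) or an ERR site (TCAAGGTCA, 0.387%). A match is a description of the letters, and a window without one says nothing about a factor that binds elsewhere.

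The deposited values are FPKM, fragments scaled to the length of the gene and to the depth of the library, so levels can be set side by side between genes. The read totals recovered from the FPKM were 35385644 to 37362725 per HFHG library and 34308108 to 36308533 per LG library. On a principal component analysis the first component took 81.0% of the variance and separated the media. LG replicate 4 stood somewhat apart from its group, with a pairwise variance over counting noise of 7.88 to 11.4 against 3.42 to 3.95 among the other LG libraries. The cells carried tendon markers, although Scx, the transcription factor of the tendon lineage, was low (2.27 FPKM ± 0.558 in HFHG and 1.45 ± 0.336 in LG, SD, n = 4), as was tenomodulin (Tnmd, 1.10 ± 0.0908 and 0.614 ± 0.298). Of 12 listed tendon stem cell markers, 9 rose and 3 fell, where 34.0% of all genes tested rose and 30.8% fell. Mkx was among those that fell, from 8.62 ± 0.691 to 6.73 ± 0.536 FPKM. The summed level of the list was 3519 to 3593 FPKM in HFHG against 2413 to 2492 in LG. Its largest part was Bgn, at 1671 ± 15.0 and 1390 ± 30.4 FPKM. Macrophage markers, described further below, were present as well, with Lyz2 at 1637 ± 19.4 FPKM in HFHG and 1765 ± 32.6 in LG. By qPCR the study reports the opposite direction for Scx and Tnmd, lower in HFHG medium, and no significant change of Mkx. It reports the change at the protein level too, with TNMD among the proteins shown. In the libraries used here the Scx groups overlapped, and Tnmd ran from 0.220 to 0.916 FPKM in LG, so both rest on low values.

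Pdk4 stood out. In the 4 HFHG libraries it was at 48.5, 49.2, 49.6 and 49.2 FPKM, and in the 4 LG libraries at 1.87, 2.04, 1.63 and 1.91 FPKM. All HFHG libraries lay far above all LG libraries, and the replicates of each group were close together. The means were 49.1 ± 0.467 and 1.86 ± 0.170 FPKM (SD, n = 4), a ratio of 26.4. On the log2(FPKM + 0.1) scale, which understates changes of low genes, the difference was 4.65 (SE 0.059, 95% interval 4.52 to 4.78). Among the 11710 genes with at least 0.5 FPKM in at least 4 libraries, Pdk4 (chr6:5483351-5496309, minus strand, GRCm38) ranked 2 by log2 fold change. The values rest on 6016 to 6258 reads per HFHG library and 200 to 256 reads per LG library, so in neither group was the gene near the limit of detection.

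**Figure D1:**
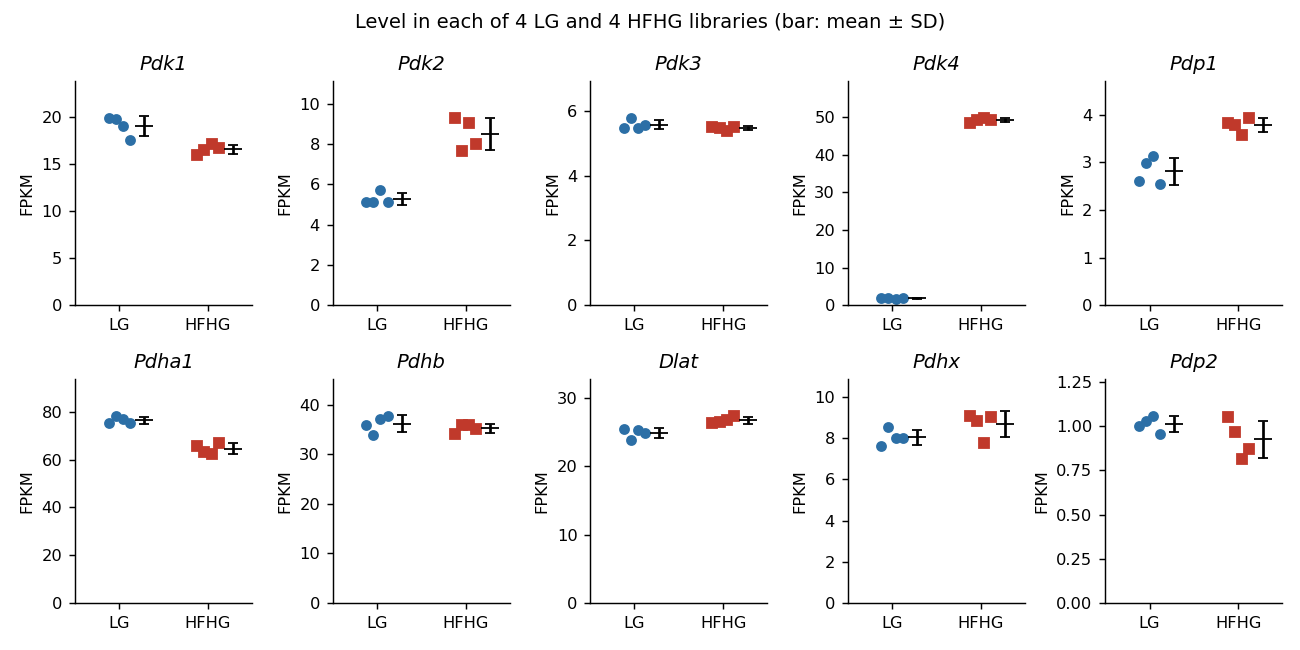
FPKM (y axis, from 0, a scale of its own in each panel) of the 10 members in each of the 4 LG libraries (blue circles) and 4 HFHG libraries (red squares), with the mean and SD of each group in black. Pdk4 went from about 1.86 to 49.1 FPKM on average, whereas Pdk3, Pdhb, Pdhx and Pdp2 have groups that overlap.

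Pdk2, the most widely expressed kinase of the family, was also higher under HFHG, on a far smaller scale than Pdk4. It was at 9.26, 7.65, 9.05 and 7.98 FPKM in HFHG and at 5.12, 5.12, 5.69 and 5.13 FPKM in LG. The groups did not overlap, and the lowest HFHG library was well above LG replicate 3, the highest of the LG libraries. The log2 difference was 0.68 (SE 0.069, 95% interval 0.53 to 0.83). The gene lies at chr11:95026258-95041354 on the minus strand, and GENCODE M21 lists the antisense gene Gm11513 on the opposite strand of this region, with no overlap of exons.

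Pdk1, the hypoxia-regulated kinase, was lower under HFHG. Its levels were 16.0, 16.5, 17.2 and 16.8 FPKM in HFHG and 19.9, 19.8, 19.1 and 17.6 FPKM in LG. LG replicate 4 came close to the HFHG libraries, but the groups did not overlap. The log2 difference was -0.20 (SE 0.045, 95% interval -0.30 to -0.10), and -0.24 without LG replicate 4. Pdk1 lies at chr2:71873224-71903858 on the plus strand.

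Pdk3, encoded on the X chromosome (chrX:93764607-93832201, minus strand), had overlapping groups. It was at 5.49, 5.47, 5.36 and 5.504 FPKM in HFHG and at 5.47, 5.76, 5.47 and 5.56 FPKM in LG, a log2 difference of -0.03 with a 95% interval of -0.13 to 0.08. All 8 libraries lay within a narrow band, and the whole interval lay below the difference seen for Pdk2. The level of Pdk3 against the other genes depends on the gene length: the length behind the deposited FPKM was 11504 bases, 5.44 times the longest GENCODE M21 transcript of 2115 bases.

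Together the kinase transcripts were more abundant under HFHG, and Pdk4 accounted for the difference. The summed FPKM of the 4 kinases was 79.3, 78.9, 81.2 and 79.5 in HFHG and 32.4, 32.8, 31.9 and 30.2 in LG, 2.51-fold higher on average. Without Pdk4, the other 3 kinases summed to 30.6 ± 0.831 FPKM in HFHG and 29.9 ± 1.13 in LG (SD, n = 4), and the groups overlapped. The make-up of the pool was different as well. Pdk4 made up 61.7% ± 0.632 of the kinase FPKM in HFHG and 5.87% ± 0.551 in LG, whereas Pdk1 made up 20.9% ± 0.442 and 60.0% ± 1.38. On the deposited FPKM, the predominant kinase transcript was thus Pdk1 in each LG library and Pdk4 in each HFHG library. Pdk2 went from 16.6% ± 1.05 in LG to 10.6% ± 0.926 in HFHG of the pool, while its own level was higher. Pdk3 made up 17.5% ± 0.673 and 6.85% ± 0.162. With the longest GENCODE transcripts as gene lengths, Pdk3 would be the largest part of the LG pool at 49.5%, ahead of Pdk1 at 37.6%, and Pdk4 would still be the largest part of the HFHG pool at 45.0%, ahead of Pdk3 at 27.4%. On these lengths, an alternative added after the data were seen, the Pdk2 share was 9.08% ± 0.803 in HFHG and 9.97% ± 0.626 in LG with overlapping groups, and the summed kinase FPKM was 1.77-fold higher in HFHG.

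**Figure D2:**
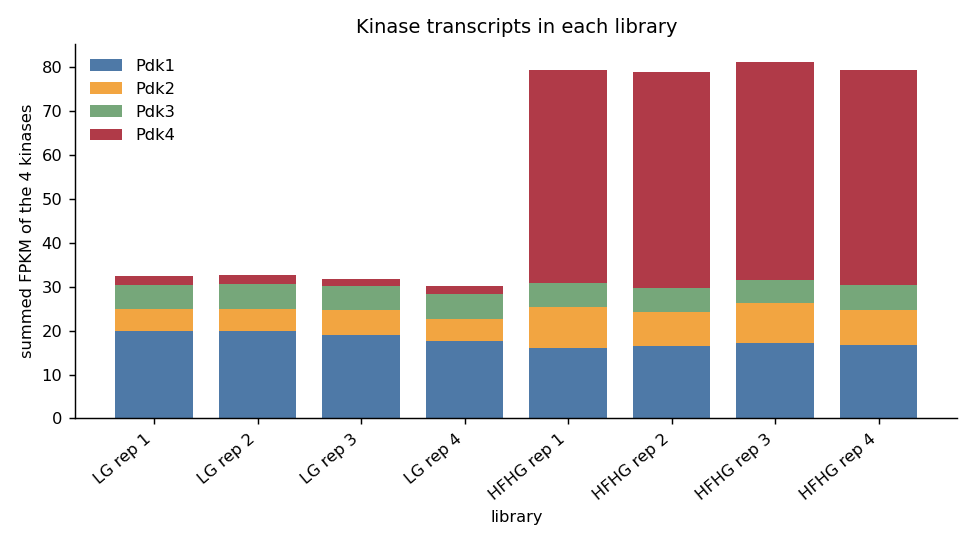
Summed FPKM of Pdk1, Pdk2, Pdk3 and Pdk4 (y axis, from 0) in each library (x axis), stacked by gene. The LG bars reach 30.2 to 32.8 FPKM and the HFHG bars 78.9 to 81.2 FPKM, and the added height is the Pdk4 segment.

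The phosphatases, which oppose the kinases, had low levels. Pdp1, the calcium-stimulated catalytic subunit (chr4:11958184-11966452, minus strand), was at 3.82, 3.79, 3.58 and 3.93 FPKM in HFHG and at 2.61, 2.98, 3.13 and 2.55 FPKM in LG. It was higher in each HFHG library than in any LG library, and the log2 difference was 0.41 (SE 0.078, 95% interval 0.25 to 0.58). Pdp2, the other catalytic subunit (chr8:104591451-104599026, plus strand), was at 1.05, 0.966, 0.814 and 0.873 FPKM in HFHG and at 1.0, 1.03, 1.06 and 0.955 FPKM in LG. These groups overlapped, and with only 168 to 226 reads per library the 95% interval of the log2 difference was wide (-0.36 to 0.12). Pdp1 made up 80.3% ± 1.6 of the phosphatase FPKM in HFHG and 73.5% ± 1.18 in LG.

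The ratio of kinase to phosphatase FPKM set both sides against each other. It was 16.3, 16.6, 18.5 and 16.6 in HFHG and 8.96, 8.16, 7.61 and 8.61 in LG, 2.04-fold higher on average without overlap. With the longest GENCODE transcripts as lengths it was 22.2 ± 1.23 and 15.5 ± 1.13, 1.43-fold higher and also without overlap. On the deposited FPKM without Pdk4 the direction was the opposite: the ratio was 6.51 ± 0.459 in HFHG and 7.84 ± 0.527 in LG (SD, n = 4), again without overlap. The summed phosphatase FPKM behind it was 4.71 ± 0.217 in HFHG and 3.83 ± 0.325 in LG. These ratios are of transcripts, and neither protein levels nor phosphorylation of the complex were part of the data.

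The subunits of the complex itself differed little between the media. Pdha1, the alpha subunit of the decarboxylase that carries the sites the kinases phosphorylate (chrX:160122209-160138413, minus strand), was the most abundant member in both groups. It was at 65.9, 63.3, 62.3 and 67.1 FPKM in HFHG and at 75.5, 78.2, 76.8 and 75.2 FPKM in LG. It was lower in every HFHG library, with a log2 difference of -0.24 (SE 0.030, 95% interval -0.31 to -0.18), the lowest of the 10 members. An exon of Map3k15 on the opposite strand overlaps its exons by 425 bases, and since the strand setting of the read counting is not given in the sources used here, reads of both genes may be mixed there.

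Its partner Pdhb, the beta subunit (chr14:8165996-8173025, minus strand), was at 34.1, 35.9, 35.9 and 35.02 FPKM in HFHG and at 36.0, 33.9, 37.2 and 37.7 FPKM in LG. The groups overlapped, and the 95% interval of the log2 difference ran from -0.12 to 0.04. Thus the ratio of Pdha1 to Pdhb was 1.84 ± 0.103 in HFHG and 2.12 ± 0.133 in LG (SD, n = 4), without overlap. With the longest GENCODE transcripts as lengths this ratio was 2.70 ± 0.151 and 3.11 ± 0.196, also without overlap. Dlat, the acetyltransferase core of the complex (chr9:50634633-50659780, minus strand), was at 26.2, 26.4, 26.8 and 27.3 FPKM in HFHG and at 25.4, 23.8, 25.3 and 24.8 FPKM in LG. The difference was small and without overlap, at 0.10 on the log2 scale (95% interval 0.03 to 0.17). Pdhx, the protein that tethers the last enzyme of the complex to this core (chr2:103021075-103073513, minus strand), was at 9.08, 8.85, 7.76 and 9.06 FPKM in HFHG and at 7.63, 8.53, 8.03 and 8.01 FPKM in LG. Its groups overlapped only through HFHG replicate 3, which was low, and the log2 difference was 0.11 (95% interval -0.02 to 0.24). The 4 subunits summed to 135 ± 2.41 FPKM in HFHG and 146 ± 1.34 in LG, so that the kinase FPKM per subunit FPKM was 0.590 ± 0.0160 against 0.218 ± 0.00884 (SD, n = 4), and 0.871 ± 0.0223 against 0.456 ± 0.0132 with the longest GENCODE transcripts as lengths.

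**Figure D3:**
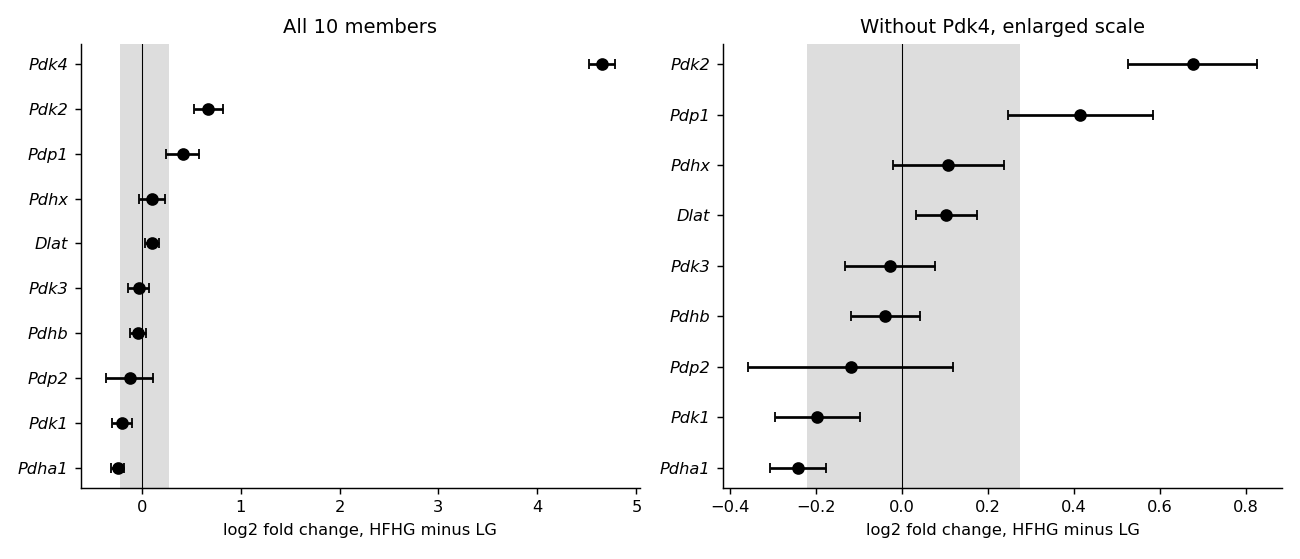
Log2 fold change of HFHG minus LG on the log2(FPKM + 0.1) scale (x axis) for each member (y axis), with 95% intervals from the fit over all genes (points and bars), for all members on the left and without Pdk4 on the right. The grey band is the middle range (quartiles) of all 11710 genes tested, -0.22 to 0.28, and only Pdk4, Pdk2, Pdp1 and Pdha1 have points outside it.

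In LG the order of the levels was Pdha1, Pdhb, Dlat, Pdk1, Pdhx, Pdk3, Pdk2, Pdp1, Pdk4 and Pdp2. In HFHG it was Pdha1, Pdk4, Pdhb, Dlat, Pdk1, Pdhx, Pdk2, Pdk3, Pdp1 and Pdp2. Pdk4 thus moved from the place before the last to the place after Pdha1. Neighbours in these orders had separate values, except Pdk3 and Pdk2 in LG and Pdhx and Pdk2 in HFHG, which overlapped. These places hold only for the counted lengths. That of Pdk3 is given above, and that of Pdhb was 1622 bases against 2377 in its longest GENCODE transcript.

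Much of the transcriptome differed between the media, and the members must be seen against that. At an adjusted p below 0.05 in limma, 34.0% of the 11710 genes were higher and 30.8% lower in HFHG, and the groups did not overlap for 59.2% of them. Counted by the same limits, 4 members lay on the higher side (Pdk2, Pdk4, Pdp1 and Dlat), 2 on the lower side (Pdk1 and Pdha1) and 6 of 10 did not overlap, which describes the chosen members and is no test of them. The threshold in the study's methods, a fold change above 2 with an unadjusted p below 0.05, was passed upwards by 3.68% and downwards by 1.65% of the genes, and by 1 and 0 of the members, the 1 being Pdk4. The median log2 difference of the members was 0.04 and that of all genes tested 0.02.

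Genes around the complex were taken from 8 lists of 114 genes in all, written from general knowledge of the pathway with earlier results of these data known. Of the 98 tested, 45 rose, 29 fell and 24 did not pass the test, where 34.0% of all genes tested rose and 30.8% fell. The counts of each list below are to be read beside the same shares, and no list was tested as a set. The first list held the shared last enzyme, the regulatory subunit of the phosphatase and the enzymes that supply lipoate, the cofactor of Dlat. Of its 17 genes, 5 rose and 3 fell, with a median log2 difference of 0.12, and those that rose were 11 when the libraries were rescaled to the same sum and 8 without HFHG replicate 2. Pdpr, which restrains the phosphatase, rose from 4.60 ± 0.222 to 6.02 ± 0.481 FPKM (log2 difference 0.38, adjusted p = 0.00029). Fdx2, a mitochondrial ferredoxin for iron-sulfur cluster assembly, fell from 39.4 ± 3.0 to 24.1 ± 0.854 FPKM (log2 difference -0.70, adjusted p = 6.7e-08). Iscu, the scaffold of these clusters, rose by 0.35 on the log2 scale, and the lipoyltransferase Lipt1 by 0.34, a call that was lost with quantile normalization and with voom. Dld, the shared dihydrolipoamide dehydrogenase, was at 43.5 ± 2.33 FPKM in HFHG and 46.9 ± 1.42 in LG, an adjusted p of 0.029 that was above 0.05 in 7 of 18 alternatives. The other genes that passed, chosen for naming after their values were seen, were Glrx5 and Nfs1, which rose, and Bola3, which fell, all of the iron-sulfur cluster pathway. The call of Nfs1 was lost in 9 alternatives.

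Thiamine pyrophosphate is the cofactor of the decarboxylase. Of 5 genes of its supply 3 were tested, and only the thiamine transporter Slc19a2 passed, rising from 14.8 ± 0.331 to 19.0 ± 1.06 FPKM (adjusted p = 1.2e-05). Slc19a3, the other plasma membrane transporter, was below the filter at 0.332 ± 0.0438 FPKM in HFHG and 0.535 ± 0.116 in LG (exact permutation test, two-sided p = 0.0286, the smallest it can give, and 0.229 after adjustment over 16 genes below the filter).

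Pyruvate has other entries and fates, and 6 of the 13 genes tested rose and 4 fell (median log2 difference 0.11). The mitochondrial pyruvate carrier, which feeds the complex, did not pass the test: Mpc1 was at 11.1 ± 1.1 FPKM in HFHG and 10.998 ± 0.783 in LG, and Mpc2 at 34.8 ± 2.59 and 32.3 ± 2.95 (adjusted p of 0.91 and 0.15). These carrier genes were named after their values were seen. Pcx, the pyruvate carboxylase that makes oxaloacetate, rose from 9.27 ± 0.597 to 14.5 ± 0.729 FPKM (log2 difference 0.64, adjusted p = 3.8e-07). Ldhb, a lactate dehydrogenase subunit, rose from 18.5 ± 0.817 to 28.8 ± 3.0 FPKM (0.63, adjusted p = 2.8e-06), and Pck2, the mitochondrial phosphoenolpyruvate carboxykinase, rose by 0.34 on the log2 scale. Slc16a3, a lactate exporter, fell from 152 ± 5.61 to 114 ± 1.81 FPKM (-0.42, adjusted p = 5.1e-08). The other 3 that fell, chosen after their values were seen, were Pkm, Gpt2 and Me2. The call of Pkm was lost with quantile normalization and that of Gpt2 after rescaling to the same sum.

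Downstream of the complex, 4 of 7 genes for the fate of acetyl-CoA rose and 1 fell (median log2 difference 0.12). Acss2, which makes acetyl-CoA from acetate outside the mitochondria, rose from 3.14 ± 0.407 to 6.43 ± 0.115 FPKM (log2 difference 1.02, adjusted p = 3.2e-07). The carnitine-acylcarnitine carrier Slc25a20 rose by 0.44 and the thiolase Acat1 by 0.32 on the log2 scale. Citrate synthase (Cs), chosen after its values were seen, was the other one that rose, by 0.12. Crat, which moves acetyl groups between CoA and carnitine, fell from 12.4 ± 0.133 to 11.1 ± 0.107 FPKM (-0.16, adjusted p = 0.0017).

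The related 2-oxo acid dehydrogenases have the same architecture. Of the 10 genes tested, 3 rose and 5 fell (median log2 difference -0.03), and those that rose were 5 when the libraries were rescaled to the same sum. Ogdh, of the citric acid cycle, rose from 14.8 ± 0.570 to 20.4 ± 0.309 FPKM (0.47, adjusted p = 2.4e-07). Bckdhb, of the branched-chain amino acid complex, fell from 13.3 ± 0.493 to 8.17 ± 0.315 FPKM (-0.70, adjusted p = 3.5e-08). Gcsh, of the glycine cleavage system, fell by 0.40 and Dhtkd1 by 0.39 on the log2 scale. The other genes that passed, chosen after their values were seen, were Dlst and the kinase Bckdk, which rose, and Dbt and Ogdhl, which fell. The call of Dlst was lost with median-ratio scaling and without HFHG replicate 4, and that of Ogdhl after rescaling to the same sum.

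**Figure D4:**
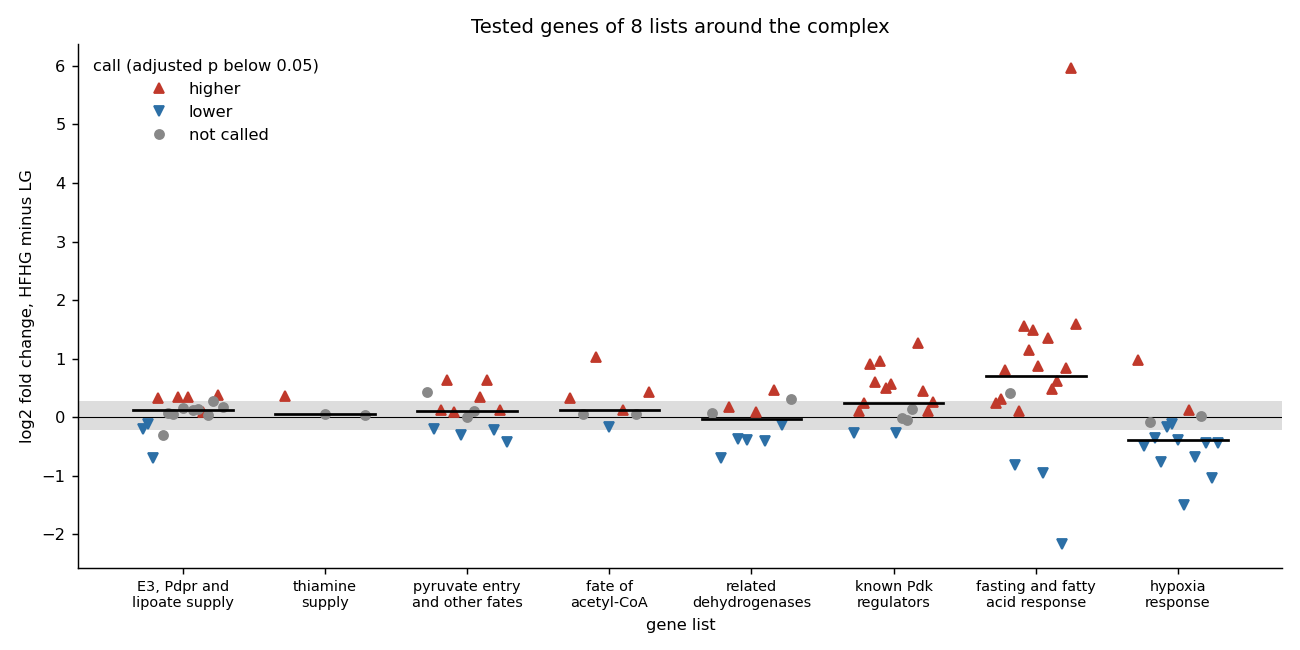
Log2 fold change of HFHG minus LG on the log2(FPKM + 0.1) scale (y axis) of each tested gene in 8 lists (x axis), marked as higher (red), lower (blue) or not called (grey) at an adjusted p below 0.05, with the median of each list as a black bar and the quartiles of all genes tested as a grey band. The median of the fasting and fatty acid list (0.71) lies above the band and that of the hypoxia list (-0.39) below it.

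Factors known to regulate Pdk genes were mostly higher. Of 22 listed, 16 were tested, 11 rose and 2 fell (median log2 difference 0.25). Lpin1, a phosphatidate phosphatase and nuclear coactivator, rose from 2.87 ± 0.181 to 6.999 ± 0.249 FPKM (log2 difference 1.26, adjusted p = 2.2e-09). Foxo1, a transcription factor known to drive Pdk4 in fasting, was at 8.87, 8.35, 8.40 and 8.40 FPKM in HFHG and at 4.38, 4.48, 4.27 and 4.17 FPKM in LG. The groups were well apart (log2 difference 0.96, adjusted p = 3.6e-09). Esrra, an orphan nuclear receptor, rose by 0.60 and Epas1, a hypoxia-inducible factor, by 0.91 on the log2 scale. The genes that fell, chosen after their values were seen, were Hif1a, from 249 ± 9.99 to 207 ± 3.52 FPKM, and Akt1, from 138 ± 2.40 to 114 ± 0.771 FPKM.

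The nuclear receptors that sense fatty acids were not all above the filter of the fit. Ppara was at 0.116 ± 0.0170 FPKM in HFHG and 0.122 ± 0.0316 in LG, Pparg at 0.305 ± 0.0993 and 0.319 ± 0.0216, and the coactivator Ppargc1a at 0.0385 ± 0.0116 and 0.0255 ± 0.0160. Ppard, the family member well above the filter, was at 26.2 ± 0.765 FPKM in HFHG and 24.3 ± 0.916 in LG (log2 difference 0.10, adjusted p = 0.025, which was above 0.05 in 5 of 18 alternatives). Ppard was named after its values were seen.

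Genes known to rise with Pdk4 in fasting or with fatty acid supply had the highest median of the 8 lists, 0.71. Of 21 genes 18 were tested, 14 rose and 3 fell. Txnip, a glucose-responsive inhibitor of thioredoxin and of glucose uptake, was at 193, 187, 187 and 186 FPKM in HFHG and at 2.85, 3.30, 2.90 and 2.63 FPKM in LG (log2 difference 5.97, adjusted p = 9.2e-16). It was the gene that ranked before Pdk4. Ucp2, a mitochondrial carrier, rose from 16.8 ± 1.86 to 50.7 ± 1.22 FPKM (1.59, adjusted p = 2.7e-10), and Angptl4, a secreted inhibitor of lipoprotein lipase, from 90.1 ± 3.74 to 264 ± 2.03 FPKM (1.55, adjusted p = 3.4e-13). Klf15, a transcription factor of the fasting response counted among those that fell, was at 0.471, 0.435, 0.402 and 0.496 FPKM in HFHG and at 2.67, 2.18, 2.15 and 2.47 FPKM in LG. It passed the filter on low values through the LG libraries alone, so it had to differ and its p is not given. The other genes that fell were the acyl-CoA thioesterase Acot2, from 25.1 ± 1.75 to 14.1 ± 0.393 FPKM, and the fatty acid binding protein Fabp3, from 21.4 ± 2.30 to 10.99 ± 0.553 FPKM, both chosen after their values were seen.

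Genes known to rise with Pdk1 in hypoxia mostly fell. Of 15 tested, 11 fell and 2 rose, with a median log2 difference of -0.39. Hk2, a hexokinase, was at 16.8, 16.3, 16.7 and 15.9 FPKM in HFHG and at 47.0, 46.8, 46.9 and 45.1 FPKM in LG (-1.49, adjusted p = 9.9e-13). Slc2a1, the basal glucose transporter, fell from 353 ± 7.27 to 171 ± 4.02 FPKM (-1.04, adjusted p = 2.5e-12), and Car9, a carbonic anhydrase, from 31.6 ± 2.0 to 18.5 ± 0.363 FPKM (-0.76, adjusted p = 8.2e-09). Adm, which encodes adrenomedullin, rose from 516 ± 6.18 to 1012 ± 6.23 FPKM (0.97, adjusted p = 4.4e-13). Ldha, the other gene that rose and chosen after its values were seen, went from 501 ± 11.4 to 543 ± 6.48 FPKM (0.12, adjusted p = 0.00046).

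The genes with a profile most like that of Pdk4 over the 8 libraries were Tslp, Cilp, Atoh8, Cyp2f2 and Aldh1a1. Likeness was the root mean square difference of the centred log2(FPKM + 0.1) values, 0.199 for Tslp and 0.520 to 0.600 for the others. Tslp, an epithelial and stromal cytokine, was at 110 ± 3.57 FPKM in HFHG and 4.91 ± 0.910 in LG. Aldh1a1, a retinaldehyde dehydrogenase, was at 51.2 ± 1.05 and 4.56 ± 0.303 FPKM, close to Pdk4 in HFHG and above it in LG. Cilp, a cartilage and tendon matrix protein, was at 6.83 ± 0.319 and 0.465 ± 0.0906 FPKM, Atoh8, a basic helix-loop-helix factor, at 5.76 ± 0.470 and 0.386 ± 0.109, and the cytochrome Cyp2f2 at 12.3 ± 0.213 and 0.940 ± 0.178. All had log2 differences of 3.46 to 4.48, so the likeness is mostly that of the difference between the media. Cilp and Atoh8 had LG means below the filter level of 0.5 FPKM and passed the filter through the HFHG libraries. The filter thus favoured a difference in the direction of Pdk4 for these genes. The nearest profiles to Pdha1 were Fubp1, Rbm45 and Pdzd8 (0.0120 to 0.0272), which differed by -0.26, -0.21 and -0.25 on the log2 scale.

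**Figure D5:**
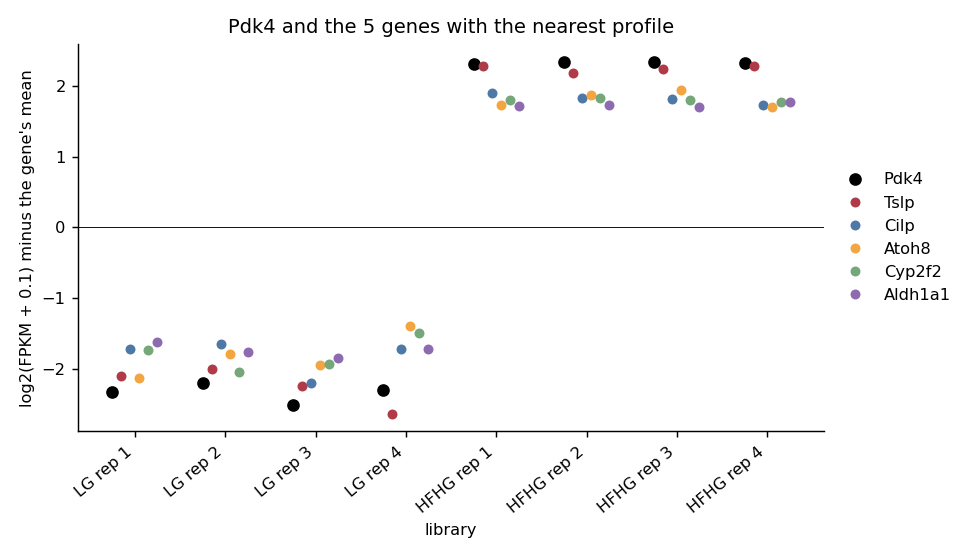
Log2(FPKM + 0.1) minus the mean of the gene over the 8 libraries (y axis) in each library (x axis) for Pdk4 and the 5 genes with the nearest profile, in colours, with points of a library set side by side. All 6 genes are below their mean in the 4 LG libraries and above it in the 4 HFHG libraries, and Pdk4 and Tslp lie farthest from 0 in HFHG.

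Markers of other cells that a tendon culture could hold also moved with the medium. Of 8 macrophage markers 7 were tested, 6 fell and the other, Ptprc, did not pass the test, where 30.8% of all genes tested fell. Their summed level, mostly Lyz2, was 1709 to 1759 FPKM in HFHG and 1870 to 1950 in LG. The sum hides larger changes, since Lyz2 fell by only 0.11 on the log2 scale. C1qa fell from 36.6 ± 2.68 to 18.6 ± 0.549 FPKM and Adgre1 from 38.0 ± 1.28 to 26.5 ± 1.23, both chosen after their values were seen. Pdha1 and Pdk1 were lower in HFHG too, as were 30.8% of all genes tested, and a link to these markers was not tested. For skeletal muscle, a tissue with much Pdk4, 7 of the 8 markers in the table were below 0.5 FPKM in every library. The last, Acta1, fell from 3.38 ± 0.378 to 0.904 ± 0.252 FPKM. For adipocytes, 5 of 7 markers, Adipoq and Plin1 among them, were below 0.5 FPKM in every library, whereas Fabp4 and Lpl rose (summed level of the list 244 to 249 FPKM in HFHG and 170 to 180 in LG). For endothelial cells, 4 of 5 were below 0.5 FPKM and Tek rose, with summed levels of 1.22 to 1.33 and 0.955 to 1.14 FPKM. The part of these cells in the values of the members was not tested. In such bulk samples, fewer cells of a type cannot be told apart from less RNA per cell.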

How the data were processed

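RNA of 8 cultures of mouse TSCs, 4 in HFHG and 4 in LG medium, was sequenced with a stranded mRNA kit. The authors deposited FPKM for 19301 genes, aligned with HISAT2 2.1.0 to mm10 according to the submitters' processing notes. The counting program, its annotation and its strand setting are not given in the sources used here. Groups and replicate numbers came from the sample titles, and the number of unused columns of per-sample values was 0.

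Whole reads were recovered from the FPKM for 100% of the genes (within 0.01 of a whole number), which gave library totals of 34308108 to 37362725 reads, 99.8% of them on listed genes. In a simulated table all 8 totals were found, and the reads were exact for 99.8% of the 13496 genes that had 100 or more. The reads served for depth and 1 alternative.

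Genes with at least 0.5 FPKM in at least 4 libraries (11710) were fitted with limma 3.58.1 (R 4.3.3) on log2(FPKM + 0.1), with an intensity trend and Benjamini-Hochberg adjustment over all of them. On simulated data for this comparison, 197 of 200 genes with a log2 change of 1 (98.5%) and 5 unchanged genes were called among 11710. The simulated noise was independent between genes, and no other genes were changed. In the data far more genes differed, with a median absolute log2 difference of 0.25. The simulation therefore does not cover small differences or shifts shared by many genes of a library. Genes below the filter were compared by an exact two-sided permutation test over 70 arrangements. Positions come from GENCODE M21 and promoter sequences from RefSeq.

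Named genes were all members, in each list up to 4 genes with the largest change at an adjusted p below 0.05 and a mean of at least 1 FPKM, genes below the filter, and the nearest profiles to Pdk4 (5) and Pdha1 (3). Others are described as chosen after their values were seen. The result of 1 listed gene is not reported here. The members and lists were chosen with earlier results of these data known. Alternatives were other pseudocounts (1, 0.01), filters and scalings, a replicate block, robust eBayes, voom on the reads, leaving out each library and, added after the data were seen, GENCODE transcript lengths.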

Additional observations from a re-analysis of the deposited data

Results flagged for a closer look

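Among 106 groups of 4 libraries, 13 had 1 library far from the other 3 by Dixon's test at 95% confidence, where chance gives about 1 in 20. Pdk2 was at 5.69 FPKM in LG replicate 3 and at 5.12 to 5.13 in the other LG libraries, which are close together. HFHG replicate 3 had a kinase to phosphatase ratio of 18.5 against 16.3 to 16.6, a ratio without Pdk4 of 7.20 against 6.23 to 6.31, and a Pdk3 share of the kinases of 6.60% against 6.92 to 6.93%. Its Pdp1 and Pdp2 were the lowest of the HFHG libraries.

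LG replicate 4, which stood somewhat apart from its group, had Angptl4 at 95.6 FPKM (others 87.7 to 88.7), Car9 at 34.5 (30.3 to 31.0), Slc2a1 at 363 (348 to 350) and Hk2 at 45.1 (46.8 to 47.0). HFHG replicate 1 had Angptl4 at 267 FPKM (262.6 to 263.1), Foxo1 at 8.87 (8.35 to 8.40) and Txnip at 193 (186 to 187). Crat was at 12.6 FPKM in LG replicate 1 (12.29 to 12.32), and Lipt1 at 1.38 in HFHG replicate 4 (1.74 to 1.76). None of these libraries reached the values of the other medium, though for Lipt1 the highest LG value was 1.37 FPKM and for the ratio without Pdk4 the lowest LG value was 7.22.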

How the results depend on the processing

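The members and gene lists were recomputed under 18 alternatives, 8 of which left out 1 library each, and the kinase sums and ratios also with the longest GENCODE transcripts as gene lengths, a choice made after the data were seen. Of the resulting values, 594 were labelled the same, 18 moved and 0 reversed a call. Member differences, kinase sums, ratios and shares were the same if they stayed within the replicate spread. Counts of genes were the same within a fixed fold limit, which the change from 3983 to 4692 genes called higher did not pass. A value labelled the same can thus hide a changed call or the changed sign of a small difference. The Pdk4 log2 difference was 4.13 with a pseudocount of 1, and ranged from 4.59 to 4.70 when libraries were left out. The log2 ratio of summed kinase FPKM was 1.33, and 1.38 after rescaling to the same sum. The log2 kinase to phosphatase ratio was 1.03, and 1.13 with quantile normalization. With the GENCODE lengths, these log2 ratios were 0.82 and 0.52, and the Pdk4 share of the kinases differed by 42.0 instead of 55.8 percentage points. As a description and not a test, Dlat left the higher side of the threshold with median-ratio scaling, Pdhx entered it after rescaling to the same sum and without HFHG replicate 3, and the sign of the small difference changed in 1 alternative for Pdk3 and 2 for Pdhb.

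Genes called higher and lower over the whole table were 3983 and 3609, 4692 and 3000 after rescaling to the same sum, and 3542 and 4054 with median-ratio scaling. The replicate numbers showed no sign of pairing: same-numbered libraries correlated at -0.0736 to -0.00558, and 0 HFHG libraries correlated best with their own number. With 4 libraries per group this cannot exclude that same-numbered cultures shared an origin. With the replicate block, 3841 and 3501 genes were called, the Pdk4 difference stayed at 4.65 (SE 0.060) and the counts of members on each side stayed at 4 and 2. Klf15 could not be fitted when an LG library was left out, since it passed the filter only through LG. Depth limited Pdp2 most, with a counting error of 7.19% per HFHG library.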
